A study of Homo sapiens with 5 samples.

Results

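The receptor tyrosine kinase genes were examined in RNA-seq of TOV21G cells, an ovarian clear cell carcinoma (OCCC) line with mutated ARID1A, and of its derivatives resistant to the EZH2 inhibitor GSK126 (EIR cells). The members were a list of 48 receptor genes set by symbol, with no threshold on measured values, and 46 of them had a row among the 30476 genes of the count table. The other 2, EPHA8 and ROS1, were not analysed here. The 5 libraries were 1 of parental cells without drug and 4 of EIR cells. EIR cells had been selected by raising GSK126 stepwise from 5 µM to 20 µM, after which clones were picked, and clones 3 and 4 were each profiled untreated and treated with GSK126. All libraries share the ARID1A-mutated background and were cultured in the same serum-containing medium. How much GSK126 the treated cultures received, and for how long, is not given in the sources used here.

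Receptor tyrosine kinases are membrane proteins that bind a growth factor or a cell surface ligand, dimerize and phosphorylate each other on tyrosines. Adaptor proteins dock on these sites and pass the signal to the RAS and PI3K pathways, which control growth and survival. Cancer cells under drug treatment are known to exchange which receptors they use, so that another receptor feeds the same pathways.

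Of the 46 receptors, 13 changed in EIR cells. EGFR, FGFR1, MET, EPHA4 and EPHA5 were higher, and ERBB2, ERBB3, INSR, PTK7, TYRO3, MERTK, EPHB4 and DDR1 were lower. These 13 were calls of the DESeq2 Wald test of the 4 EIR libraries against parental cells, with a Benjamini-Hochberg adjusted p under 0.05 over all genes. Of them, EPHA5 had no parental counts and passed the filter on low counts through EIR libraries. It was not called in clone 3 by itself (DESeq2 adjusted p = 0.06234), and its group call was lost in edgeR (adjusted p = 0.1897). AXL was higher than parental cells in each clone tested by itself. DESeq2 gave 32 of the 46 an adjusted p, the remaining 14 having too few counts, so that 40.6% of the tested receptors were called. Of all genes tested, 25.5% were called in either direction, 12.4% higher and 13.2% lower. The 22 receptors whose mean normalized count was 100 or more had a median log2 change of -0.33, against -0.06 over all 11564 genes at that level. With a correction for the GC content of transcripts these medians were 0.06 and 0.01, and the split of called receptors moved from 5 higher and 8 lower to 6 higher and 6 lower (18.6% of all genes called, 9.54% higher and 9.08% lower). By edgeR's quasi-likelihood test 1 receptor was called higher and 9 lower (5.73% of all genes called, 2.13% higher and 3.6% lower).

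Parental cells were sequenced once, so the spread came from EIR libraries. The 4 EIR libraries are 2 clones, each with an untreated and a treated library, and no clone was sequenced again under the same treatment. In the group test, p-values therefore measure a spread that includes differences between clones and between treatments. In the tests per clone, the untreated and the treated library of a clone stood as its 2 samples. All comparisons with parental cells share the same parental library. Total counts per library ranged from 25479238 to 30764963. Below, a normalized count is a deposited gene count divided by the DESeq2 size factor of its library. In bulk RNA, fewer expressing cells and less RNA per cell cannot be told apart.

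The labelled epithelial origin was checked first. Of 8 markers of Müllerian and clear cell epithelium, 7 had a row, and their summed normalized counts were 22500 in parental cells and 24100 to 27900 in EIR cells. PAX8, the Müllerian transcription factor, was at 3083 to 4523 normalized counts in every library. EPCAM, an epithelial adhesion molecule, was at 400.9 in parental cells and at 394.4 and 492.2 in clone 3, but at 0 and 1.058 in clone 4. CDH1, which encodes E-cadherin, was at 6.043 in parental cells, 99.99 and 146.3 in clone 3, and 2.035 and 4.232 in clone 4. Summed endothelial markers (3 of 5 with a row) were 10.1 in parental and 17.6 to 33.9 in EIR libraries, and summed leukocyte markers (3 of 5) were 65.5 and 65.7 to 91.5. Summed fibroblast markers (5 of 5) were 361 in parental cells and 121 to 152 in EIR cells, with COL1A2 at 246.8 in parental and 30.68 or below in EIR libraries, and POSTN at 6.043 in parental and 9.883 to 70.19 in EIR libraries. The part of these marker differences in the receptor values was not tested.

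Among the 46 receptors, levels per length (RPKM computed here from the deposited counts and the length of the canonical transcript) summed to 342.0 in parental cells, 352.8 and 378.7 in clone 3 untreated and treated, and 347.7 and 420.4 in clone 4. These levels were scaled by total counts, whereas normalized counts used size factors. For FGFR1, treated clone 4 was above untreated clone 3 by level (81.14 and 79.67) but below it by normalized counts (12460 and 12930). The part of this scaling in the differences between sums was not tested. The 8 receptors highest by mean level were FGFR1, AXL, MET, FGFR2, RYK, PTK7, EPHA2 and EPHA4. They made up 65.7% of the receptor sum in parental cells and 79.0% to 81.0% in EIR cells. That mean covers 4 EIR libraries and 1 parental library, so the choice of the 8 favours receptors high in EIR cells. MERTK, at rank 6 in parental cells, was left out, while EPHA4, at rank 13 there, was included. The higher share in EIR cells is therefore partly built in and is no test of a change. PTK7 ranked 1 and FGFR1 ranked 2 in parental cells, at levels of 47.72 and 44.8. In all 4 EIR libraries FGFR1 ranked 1, at 61.36 to 85.49, while PTK7 was at 18.16 to 21.48. EPHA4 moved from rank 13 in parental cells to ranks 4 to 7, and EGFR from rank 12 to ranks 5 to 9. These levels depend on the length of the chosen transcript, and neighbouring ranks were often close, such as EPHA4 and EGFR at mean levels of 21.33 and 21.31.

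**Figure D1:**
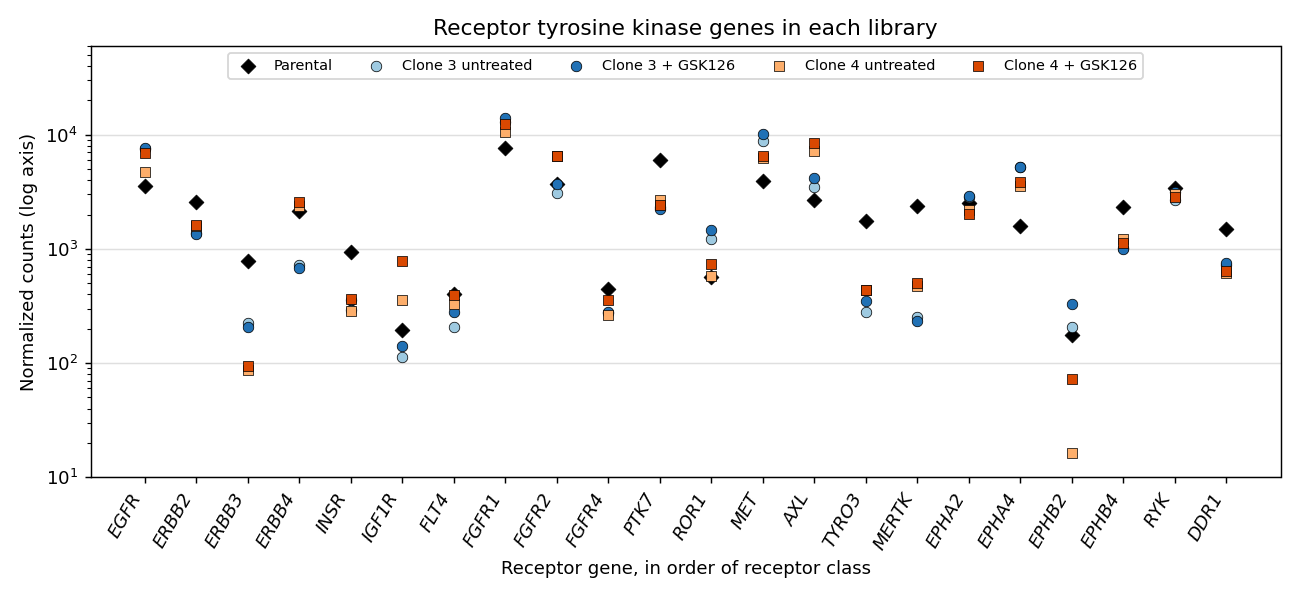
Normalized counts (log axis) of the 22 receptors with a mean of 100 or more, ordered by receptor class, with a point for each of the 5 libraries. The parental point (black diamond) lies above all EIR points for TYRO3, MERTK, PTK7 and ERBB3 and below them for MET and EPHA4, while ERBB4, IGF1R and EPHB2 separate clone 3 (circles) from clone 4 (squares).

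The TAM receptors TYRO3, AXL and MERTK bind the ligand GAS6, and sense phosphatidylserine on dying cells. Protein S is a ligand of TYRO3 and MERTK. TYRO3 (chr15:41849873-41875787, hg19, forward strand) had 1754 normalized counts in the parental library, 279.6 and 348.9 in clone 3 untreated and treated, and 438.4 and 436.9 in clone 4. MERTK (chr2:112656184-112787138, forward strand) had 2390 in parental cells, 253.7 and 233.2 in clone 3, and 474 and 502.5 in clone 4. Every EIR library was thus far below the parental library for both genes. The log2 change was -2.22 for TYRO3 (SE 0.33, DESeq2 adjusted p = 8.259e-10) and -2.71 for MERTK (SE 0.50, DESeq2 adjusted p = 1.598e-06). MERTK is also a macrophage receptor. The leukocyte markers summed to 65.5 in the parental library, against 65.7 to 91.5 in EIR libraries. CD68 went from 36.26 normalized counts up to between 55.34 and 87.48, without a call by DESeq2 or edgeR. PTPRC went from 2.014 up to between 2.035 and 14.82, also without a call. CD14 moved the other way, from 27.19 down to 7.406 or fewer. By edgeR, CD14 was lower in clone 3 (adjusted p = 0.003145) and clone 4 (adjusted p = 0.04754). The 32 expressed genes within 5 Mb of MERTK had a median log2 ratio to parental cells of 0.39 in clone 3 and 0.12 in clone 4, beside -3.29 and -2.29 for MERTK itself. The part of other cell types or of this region in the MERTK result was not tested.

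AXL (chr19:41725128-41767671, forward strand) moved the other way. It had 2674 normalized counts in parental cells, 3461 and 4180 in clone 3, and 7234 and 8431 in clone 4, with no overlap between the clones. The log2 change was 0.51 (SE 0.19, DESeq2 adjusted p = 0.02506) in clone 3 and 1.55 (SE 0.19, DESeq2 adjusted p = 8.346e-15) in clone 4. With both clones as a group, 1.12 (SE 0.50) missed the threshold (DESeq2 adjusted p = 0.08425) and passed it with the GC correction (DESeq2 adjusted p = 0.03802). The clone 3 call was lost by leaving out the untreated or the treated clone 3 library (0.65 and 0.37) and in edgeR's quasi-likelihood test (adjusted p = 0.06992).

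The start regions of these receptors, which share the ligand GAS6 and moved in opposite directions, are shown because they differ in CpG content. Sequences are from RefSeq, in build GRCh38.p14 and not the hg19 of the gene coordinates above, on the plus strand from 5′ to 3′, with CpG dinucleotides in capitals. All cover 300 bases around a transcript start.
AXL (chr19:41218973-41219272): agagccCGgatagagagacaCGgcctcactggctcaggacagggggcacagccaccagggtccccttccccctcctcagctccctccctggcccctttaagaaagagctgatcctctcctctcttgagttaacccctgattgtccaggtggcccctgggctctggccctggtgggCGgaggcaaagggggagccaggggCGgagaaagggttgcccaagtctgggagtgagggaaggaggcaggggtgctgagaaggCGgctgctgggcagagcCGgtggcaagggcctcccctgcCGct
MERTK (chr2:111898357-111898656): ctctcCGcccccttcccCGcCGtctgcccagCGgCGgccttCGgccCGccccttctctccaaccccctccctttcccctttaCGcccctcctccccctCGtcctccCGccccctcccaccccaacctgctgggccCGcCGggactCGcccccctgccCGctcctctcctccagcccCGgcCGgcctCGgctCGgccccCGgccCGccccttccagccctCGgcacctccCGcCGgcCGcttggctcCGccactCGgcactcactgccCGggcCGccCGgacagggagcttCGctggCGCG
TYRO3 (chr15:41558962-41559261): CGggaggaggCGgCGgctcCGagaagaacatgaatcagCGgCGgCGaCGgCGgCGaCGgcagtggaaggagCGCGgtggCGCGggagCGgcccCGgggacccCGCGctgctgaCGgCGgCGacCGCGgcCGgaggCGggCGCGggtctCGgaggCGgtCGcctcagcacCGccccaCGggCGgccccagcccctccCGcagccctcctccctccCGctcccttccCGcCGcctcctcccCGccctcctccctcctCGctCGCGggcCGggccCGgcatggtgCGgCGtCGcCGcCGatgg
The AXL window held 7 CpG, the MERTK window 32 and the TYRO3 window 49. Of 35116 RefSeq windows of this length, with a median of 14 CpG, 36.8%, 81.1% and 98.4% held fewer, respectively. A second listed start held 17 CpG for AXL and 10 for TYRO3, so the order depends on the start used. The letters GGGCGG on either strand, which can overlap a CpG, occurred 2 times in the AXL window, 5 times in the MERTK window and 3 times in the TYRO3 window, and at least once in 45.0% of all windows and 64.9% of the 74 windows of 43 receptors.

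The ligands of this family were lower. GAS6 had 598.3 normalized counts in parental cells, 73.14 and 118.6 in clone 3, and 65.1 and 92.04 in clone 4 (log2 change -2.78, SE 0.42, DESeq2 adjusted p = 3.303e-09). PROS1, which encodes protein S, had 4027 there and 2173 to 2702 in EIR libraries (log2 change -0.72, SE 0.22, DESeq2 adjusted p = 0.005483). The PROS1 call was lost in edgeR (adjusted p = 0.05388), with the libraries of each clone summed, and with untreated or treated EIR libraries alone. No EIR library reached the parental value for either ligand.

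**Figure D2:**
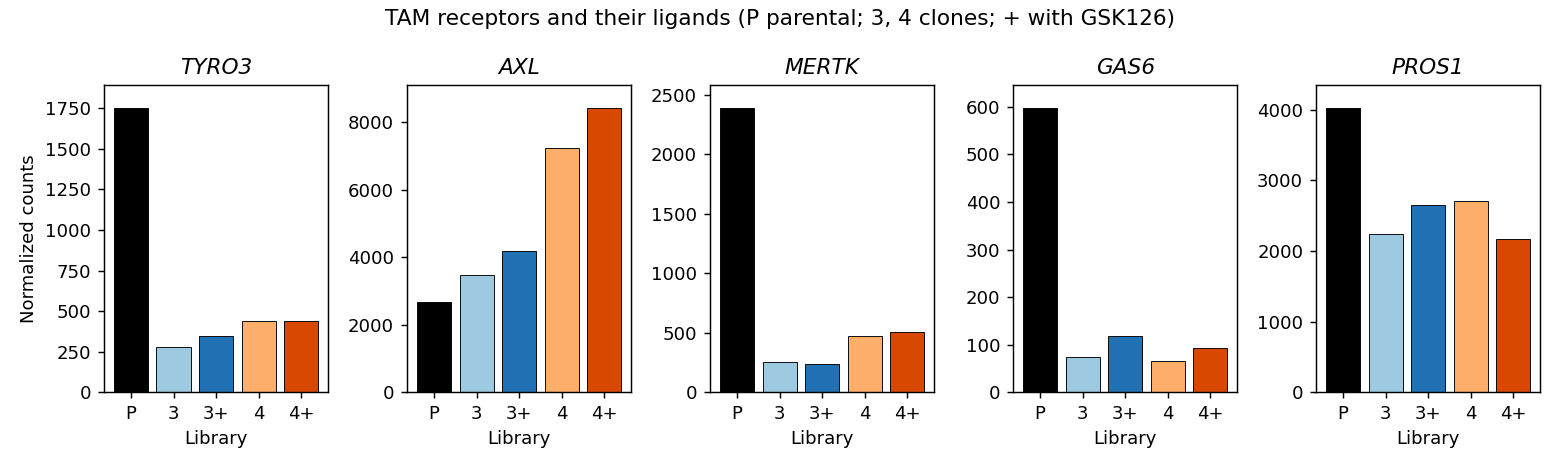
Bars give the normalized counts (linear axes from 0, a separate scale in each panel) of the 3 TAM receptors and their ligands GAS6 and PROS1 in each library. TYRO3, MERTK and GAS6 are lower in all 4 EIR libraries than in parental cells (P), while AXL is higher, most in clone 4.

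The ErbB family binds EGF-like ligands and neuregulins. ERBB2 has no known ligand of its own and acts as the partner in dimers, and ERBB3 has little kinase activity and signals through its partners. EGFR (chr7:55086710-55279321, forward strand) had 3561 normalized counts in the parental library, 7438 and 7680 in clone 3 and 4680 and 6864 in clone 4. All EIR libraries were above parental cells, and the log2 change was 0.90 (SE 0.32, DESeq2 adjusted p = 0.02205). That call was lost without the untreated clone 3 library (0.85, DESeq2 adjusted p = 0.0649) and without the treated clone 3 library (0.82, DESeq2 adjusted p = 0.06634). It was also lost with untreated EIR libraries alone (0.77) and in edgeR (adjusted p = 0.1332). By clone the change was 1.09 in clone 3 (DESeq2 adjusted p = 5.763e-06) and 0.70 in clone 4 (DESeq2 adjusted p = 0.005437). The clone 4 call, too, was lost without either clone 3 library.

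ERBB2 (chr17:37844167-37886679, forward strand) had 2579 normalized counts in the parental library, 1389 and 1362 in clone 3 and 1578 and 1609 in clone 4. The groups did not overlap, and the log2 change was -0.80 (SE 0.19, DESeq2 adjusted p = 0.0004627). With the GC correction it was -0.29 (DESeq2 adjusted p = 0.4712), and the call was also lost with the libraries of each clone summed (DESeq2 adjusted p = 0.05888). ERBB3 (chr12:56470583-56497289, forward strand) had 790.6 in parental cells, 225.9 and 207.5 in clone 3 and 87.48 and 95.22 in clone 4, the lowest values being those of the clone in which EPCAM was near 0. Its log2 change was -2.36 (SE 0.61, DESeq2 adjusted p = 0.001142).

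ERBB4, the neuregulin receptor, separated the clones. It had 2152 normalized counts in parental cells, 718.4 and 682.9 in clone 3, and 2357 and 2569 in clone 4. It fell in clone 3 (log2 change -1.62, SE 0.19, DESeq2 adjusted p = 2.898e-15), while in clone 4 the change was 0.19 (SE 0.19, DESeq2 adjusted p = 0.4758). The clones differed by 1.81 (SE 0.19, DESeq2 adjusted p = 1.449e-18), higher in clone 4.

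The insulin receptor INSR (chr19:7112266-7294425, reverse strand) had 945.7 normalized counts in the parental library, 293.5 and 359.7 in clone 3 and 283.8 and 362.9 in clone 4. The values of the clones overlapped and all were below parental cells, with a log2 change of -1.54 (SE 0.26, DESeq2 adjusted p = 1.923e-07). IGF1R, the related receptor for insulin-like growth factors, had 193.4 in parental cells, 113.9 and 142.3 in clone 3, and 357.1 and 786.1 in clone 4. It was higher in clone 4 than in clone 3 (log2 2.06, SE 0.32, DESeq2 adjusted p = 4.958e-09). The clone 4 change against parental cells of 1.56 (SE 0.43, DESeq2 adjusted p = 0.001407) was 0.89 without the treated clone 4 library (DESeq2 adjusted p = 0.1992).

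Of the FGF receptors, FGFR1 (chr8:38257733-38326352, reverse strand) had 7670 normalized counts in the parental library, 12930 and 14100 in clone 3 and 10480 and 12460 in clone 4. Every EIR library was above parental cells, and the log2 change was 0.70 (SE 0.22, DESeq2 adjusted p = 0.00911). In edgeR it missed the threshold (adjusted p = 0.1259), as it did with the libraries of each clone summed (DESeq2 adjusted p = 0.08701) and with untreated EIR libraries alone (DESeq2 adjusted p = 0.119), and its clone 4 call was lost without either clone 3 library. FGFR2 had 3722 in parental cells, 3098 and 3701 in clone 3, and 6544 and 6558 in clone 4. It rose in clone 4 (log2 change 0.82, SE 0.18, DESeq2 adjusted p = 3.944e-05), and the clones differed by 0.95 (SE 0.17, DESeq2 adjusted p = 1.043e-06). FGFR4, at 442.2 in parental and 266.5 to 354.4 in EIR cells, was not called by DESeq2 in any comparison, but was called lower in clone 3 by edgeR (adjusted p = 0.03836), and FGFR3 stayed at 43.31 normalized counts or below.

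MET, the receptor for hepatocyte growth factor (chr7:116312250-116438431, forward strand), had 3936 normalized counts in the parental library, 8864 and 10090 in clone 3 and 6248 and 6482 in clone 4. All EIR libraries were higher, clone 3 most. The log2 change was 1.01 (SE 0.33, DESeq2 adjusted p = 0.01334), and the difference of clone 4 from clone 3 was -0.58 (SE 0.16, DESeq2 adjusted p = 0.005545). The group call was lost in edgeR (adjusted p = 0.1167), with the libraries of each clone summed (DESeq2 adjusted p = 0.05089), and with the untreated (0.94, DESeq2 adjusted p = 0.09675) or the treated EIR libraries (1.07, DESeq2 adjusted p = 0.05092) alone. The 17 expressed genes within 5 Mb of MET had a median log2 ratio to parental cells of 0.61 in clone 3 and 0.57 in clone 4, beside 1.26 and 0.69 for MET itself, and the part of this regional shift in the MET result was not tested. HGF, its ligand, had 38 counts in untreated clone 3 and 4 counts or fewer in the other libraries. The related receptor MST1R stayed at 33.24 or below.

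Eph receptors bind ephrins on neighbouring cells and guide adhesion and migration. EPHA4 (chr2:222282747-222438922, reverse strand) had 1598 normalized counts in the parental library, 5189 and 5254 in clone 3 and 3557 and 3856 in clone 4. The groups did not overlap, with a log2 change of 1.48 (SE 0.30, DESeq2 adjusted p = 1.74e-05). EPHB4 (chr7:100400187-100425145, reverse strand) had 2344 in parental cells, 1013 and 1003 in clone 3 and 1214 and 1120 in clone 4. It fell by 1.11 on the log2 scale (SE 0.20, DESeq2 adjusted p = 1.237e-06), and with the GC correction the change was -0.54 (DESeq2 adjusted p = 0.1687). EPHA2, at 2546 in parental cells and 2007 to 2882 in EIR cells, overlapped and was not called by DESeq2 (log2 change -0.04, SE 0.29), although with the GC correction it was called higher in clone 3 (0.58, DESeq2 adjusted p = 0.00476).

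Other Eph genes were low or differed between clones. EPHB2 had 175.2 normalized counts in parental cells, 208.3 and 328.1 in clone 3, and 16.28 and 71.94 in clone 4. Clone 4 was lower than clone 3, at a log2 difference of -2.86 (SE 0.47, DESeq2 adjusted p = 4.248e-08), a call lost without the treated clone 3 library (DESeq2 adjusted p = 0.06247) and without treatment as a covariate (DESeq2 adjusted p = 0.05658). EPHA5 had no counts in the parental library, which allows a level of up to 0.101 CPM.

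EPHA5 had 6.481 and 6.918 normalized counts in clone 3 and 76.29 and 112.1 in clone 4. It was at least 31.2-fold higher in clone 4 and at least 2.22-fold higher in clone 3 than a floor of 3 counts in the parental library, with DESeq2 adjusted p of 0.0002683 and 0.06234, and the group call (0.01044) was lost in edgeR (adjusted p = 0.1897). It passed the filter on low counts through EIR libraries. EPHA7 had 36.11 and 43.48 in clone 3 but 2.014 in parental cells and 2.035 and 1.058 in clone 4. Its summed counts were 19.7-fold higher in clone 3 than in parental cells (95% exact interval for counting error 5.28 to 165, DESeq2 adjusted p = 0.01998), a call lost without the untreated clone 3 library (DESeq2 adjusted p = 0.1915) and with the GC correction (DESeq2 adjusted p = 0.05403).

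PTK7, a receptor without kinase activity that takes part in Wnt and planar polarity signalling, had 6054 normalized counts in parental cells, 2350 and 2220 in clone 3 and 2694 and 2445 in clone 4. The log2 change was -1.32 (SE 0.18, DESeq2 adjusted p = 7.099e-11), and PTK7 was called lower under all alternatives run. ROR1, a receptor for WNT5A, had 570.1 in parental cells, 1213 and 1477 in clone 3, and 581.9 and 736.3 in clone 4. It rose in clone 3 (log2 change 1.24, SE 0.25, DESeq2 adjusted p = 8.088e-06), and the difference of clone 4 from clone 3 was -1.04 (SE 0.21, DESeq2 adjusted p = 2.067e-05). Its antisense neighbour ROR1-AS1 had 40 counts in parental and 120 to 212 in EIR libraries, and since strand use in the counting is not stated, reads of these overlapping genes cannot be told apart. WNT5A itself fell from 3354 normalized counts to between 429.3 and 703.6.

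The collagen receptor DDR1 (chr6:30844198-30867933, forward strand) had 1508 normalized counts in the parental library, 724.9 and 757 in clone 3 and 611.4 and 643.2 in clone 4. It was lower in all EIR libraries (log2 change -1.14, SE 0.22, DESeq2 adjusted p = 4.637e-06). RYK, an atypical Wnt receptor, had 3444 in parental and 2665 to 3135 in EIR cells and was not called by DESeq2 (log2 change -0.23, SE 0.17). FLT4, the VEGF-C receptor, had 406.9 in parental and 209.2 to 392.5 in EIR cells and was not called by DESeq2 either (log2 change -0.43, SE 0.40), but was lower in clone 3 by edgeR (adjusted p = 0.0312).

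FLT1, a VEGF receptor known from endothelium, was low in all libraries, at 72.52 normalized counts in parental cells, 32.4 and 22.73 in clone 3, and 1.017 and 3.174 in clone 4. In clone 4 its summed counts were 35.0-fold lower than in parental cells (95% exact interval for counting error 13.1 to 132, DESeq2 adjusted p = 0.0001368). The summed endothelial markers, 10.1 in parental and 17.6 to 33.9 in EIR libraries, were low throughout, and their part in the FLT1 result was not tested. NTRK3, a neurotrophin receptor, had 17.59 and 16.8 in clone 3 and no counts in the other 3 libraries. Of the remaining receptors, 6 (KIT, CSF1R, KDR, ROR2, ALK and LTK) had 3 counts or fewer in every library, and 14 were at 76.55 normalized counts or below in every library and were not called by DESeq2. Of these 14, edgeR called EPHA1 lower in EIR cells (19.14 normalized counts in parental cells and 1.058 or fewer in EIR libraries, adjusted p = 0.02856) and in each clone (adjusted p = 0.007302 and 0.01692). In clone 4, edgeR called FGFR3 (adjusted p = 0.04496), MST1R (0.02333), EPHA3 (0.01683) and RET (0.01586) lower, EPHA3 also being called by DESeq2 with the GC correction (adjusted p = 0.03987).

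The clones differed from each other directly in 13 of the 34 receptors tested (38.2%), 6 higher and 7 lower in clone 4, against 9.83% of all genes tested (3.31% higher and 6.52% lower). Higher in clone 4 were ERBB4, IGF1R, FGFR2, AXL, MERTK and EPHA5, and lower were ERBB3, NTRK3, ROR1, MET, EPHA4, EPHA7 and EPHB2. MERTK was higher in clone 4 by 1.00 on the log2 scale (SE 0.28, DESeq2 adjusted p = 0.006506), although both clones were far below parental cells. NTRK3 was at least 5.52-fold lower in clone 4 than in clone 3 against a floor of 3 counts per library (DESeq2 adjusted p = 0.02773). NTRK3 and EPHA7 passed the filter on low counts through the clone 3 libraries. The NTRK3 call was lost without the untreated (DESeq2 adjusted p = 0.05259) or the treated clone 4 library (DESeq2 adjusted p = 0.0581). Leaving out a clone 3 library left a lone library of that clone, and some of the calls between clones were lost. Without the treated clone 3 library those of ERBB4, IGF1R, FGFR2, AXL and EPHA5 remained, all higher in clone 4. The share of all genes called in these runs is not given here. The calls of MET and EPHA4 between clones were also lost in edgeR (adjusted p = 0.07108 and 0.0891).

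Against the shared parental library, 16 of 33 tested receptors were called in clone 3 (48.5%, against 29.2% of all genes tested) and 17 of 32 in clone 4 (53.1%, against 32.9%). In clone 3, 7 were higher and 9 lower (14.7% and 14.5% of all genes), and in clone 4, 8 were higher and 9 lower (14.7% and 18.3%). EGFR, FGFR1, MET, AXL and EPHA4 were higher and ERBB2, ERBB3, INSR, PTK7, TYRO3, MERTK, EPHB4 and DDR1 lower in both. ERBB4, ROR1 and EPHA7 passed the threshold in clone 3 and not in clone 4, and IGF1R, FLT1, FGFR2 and EPHA5 in clone 4 and not in clone 3. Of these 7, FLT1 was the exception for which the direct test between clones missed the threshold (DESeq2 adjusted p = 0.05413).

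**Figure D3:**
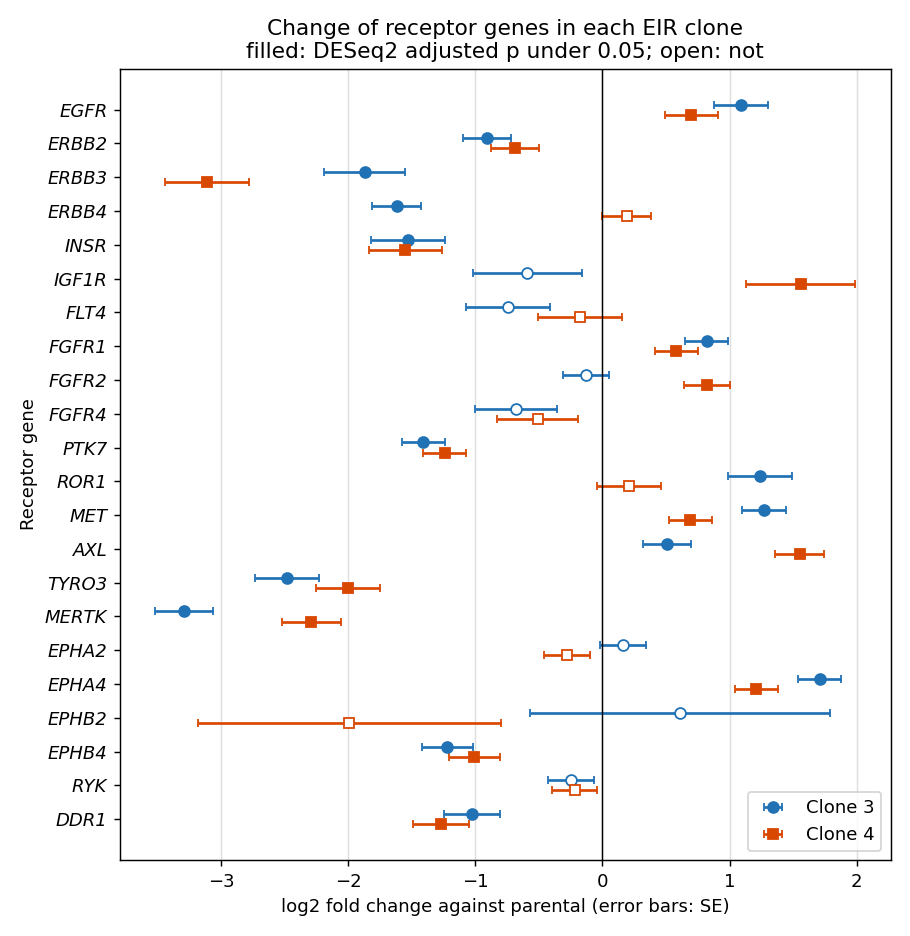
Log2 fold change against the parental library with its standard error for the 22 receptors whose mean normalized count was 100 or more, in clone 3 (circles) and clone 4 (squares), filled where the DESeq2 adjusted p was under 0.05. The clones lie on the same side of 0 for EGFR, MET, AXL, TYRO3, MERTK and PTK7, and on opposite sides for ERBB4, IGF1R and FGFR2, and both share the same parental library.

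Treatment with GSK126 gave no receptor call within EIR cells. Of the 46 receptors, 0 were called between treated and untreated EIR cells by DESeq2, by edgeR, or with the clone as a block. In the DESeq2 test without the block, whose spread includes the differences between clones, 0 had an unadjusted p under 0.05. Over all genes, 0.00335% were called by DESeq2, 0% by edgeR and 0.0134% with the block. Within clone 3 the log2 ratio of treated to untreated cells ranged from -0.12 to 0.65 over the 22 receptors with a mean of 100 or more (median 0.10), and within clone 4 from -0.14 to 2.11 (median 0.12). In both clones 12 of the 22 were higher with GSK126 and 2 lower, and the matching share of all genes was not computed. By the DESeq2 fit of treated against untreated EIR cells, the median log2 change was 0.10 over these 22 receptors. It was -0.02 over all 11564 genes at that level. EPHB2 went from 208.3 to 328.1 normalized counts in clone 3 and from 16.28 to 71.94 in clone 4, and its DESeq2 adjusted p was 0.9999 with and without the clone as a block. IGF1R went from 113.9 to 142.3 and from 357.1 to 786.1.

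**Figure D4:**
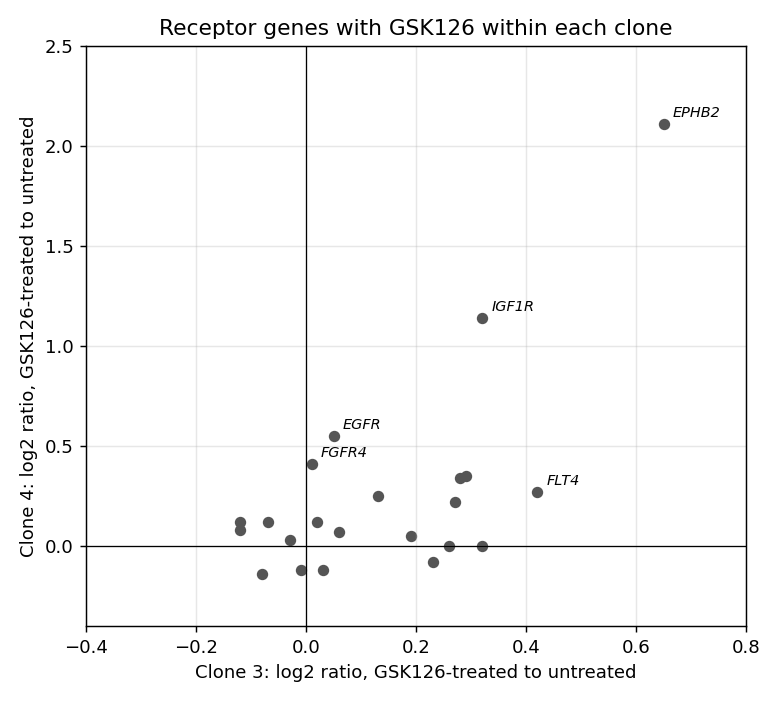
Each point is a receptor whose mean normalized count was 100 or more, placed by its log2 ratio of GSK126-treated to untreated cells in clone 3 (x axis) and in clone 4 (y axis), each ratio being that of 1 library to another. Most points lie near 0, and EPHB2 and IGF1R lie farthest from it, at 2.11 and 1.14 in clone 4.

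The ligand list held 69 genes, of which 58 had a row and 36 were tested. In EIR cells 10 were higher and 6 lower (44.4%, against the 25.5% of all genes given above). Among ligands of the ErbB receptors, BTC (betacellulin) had 10.07 normalized counts in parental cells, 510.1 and 584.1 in clone 3, and 195.3 and 287.8 in clone 4, a log2 change of 5.29 (SE 0.76, DESeq2 adjusted p = 3.107e-10). HBEGF rose from 151.1 to between 337.5 and 561 (log2 change 1.59), and EREG, which encodes epiregulin, from 4595 to between 7746 and 13090 (1.10). NRG1, a ligand of ERBB3 and ERBB4, rose from 876.2 to between 1945 and 2470 (1.40). TGFA went the other way, at 3149 in parental cells, 1416 and 1766 in clone 3, and 402.8 and 697.2 in clone 4. It was not called with both clones as a group (DESeq2 adjusted p = 0.258), but was lower in clone 3 (log2 change -0.99, DESeq2 adjusted p = 0.00229) and in clone 4 (-2.52, DESeq2 adjusted p = 1.355e-17). The EREG call was lost in edgeR (adjusted p = 0.113), with the GC correction (DESeq2 adjusted p = 0.3121) and with untreated EIR libraries alone.

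KITLG, the ligand of KIT, stood at 2455 normalized counts in parental cells against 12930 to 15610 in the EIR libraries (log2 change 2.54, SE 0.18, DESeq2 adjusted p = 1.64e-43), whereas KIT was at 3 counts or fewer in every library. FGF2, a ligand of FGF receptors, rose from 1570 to between 5299 and 7997 (log2 change 2.07, SE 0.27, DESeq2 adjusted p = 1.471e-12). Of the ephrins, EFNB2 rose from 132.9 to between 1062 and 1220 (log2 change 3.11, SE 0.23, DESeq2 adjusted p = 7.67e-40). EFNA5 rose as well, by 1.93 on the log2 scale, while EFNA4 and EFNB3 fell by 1.31 and 2.81. EFNB1 was 1066 in parental cells, 2417 and 2853 in clone 3 and 374.4 and 409.4 in clone 4, and, though not called in the group of EIR libraries, was higher in clone 3 (log2 change 1.31, DESeq2 adjusted p = 1.069e-08) and lower in clone 4 (-1.44, DESeq2 adjusted p = 4.702e-10).

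Of the remaining calls, PDGFD was higher (0.78) and VEGFB lower (-0.76), and both were lost in edgeR (adjusted p = 0.1836 and 0.1203), with the GC correction, and without the untreated clone 4 (DESeq2 adjusted p = 0.1189 and 0.05925) or the treated clone 3 library (DESeq2 adjusted p = 0.1456 and 0.1323). WNT5A, a ligand of ROR1 and RYK, was lower, at a log2 change of -2.60 (SE 0.33, DESeq2 adjusted p = 1.592e-13). ANGPT1, a TEK ligand with a mean under 100 normalized counts, was the remaining higher call. TEK itself was at 4.069 or below.

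**Figure D5:**
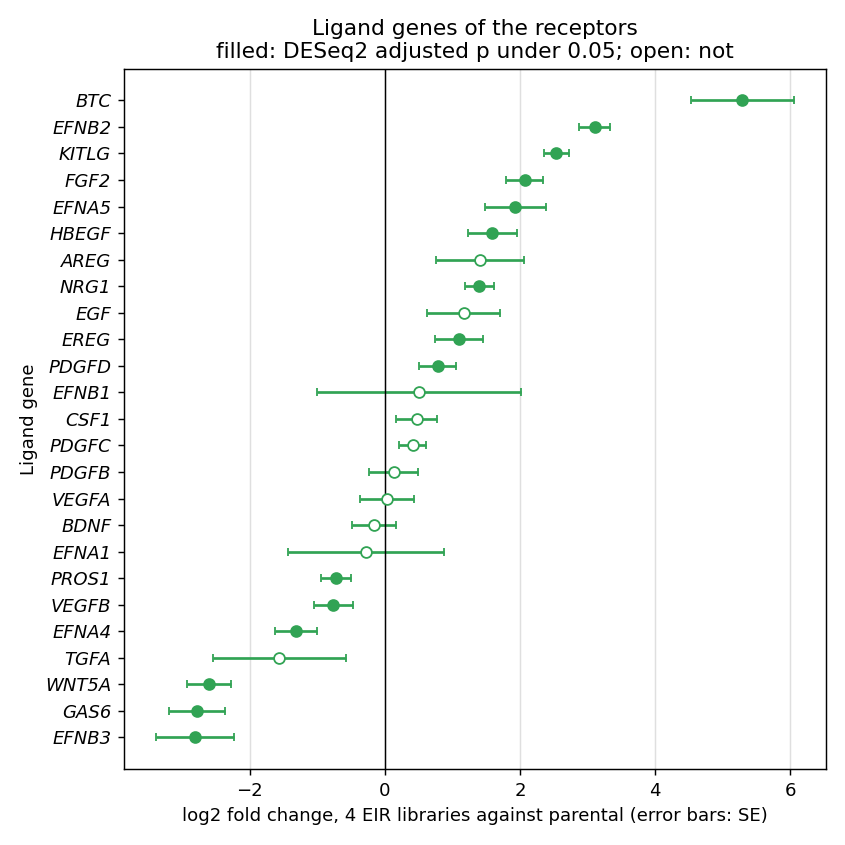
Log2 fold change of the 4 EIR libraries against the parental library with its standard error, for the ligand genes whose mean normalized count was 100 or more, filled where the DESeq2 adjusted p was under 0.05. BTC, EFNB2, KITLG and FGF2 lie farthest to the right, and EFNB3, GAS6 and WNT5A farthest to the left.

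Adaptors and regulators of the receptors were a list of 35 genes, of which 34 had a row and 30 were tested, 3 being higher and 7 lower in EIR cells (33.3%, against 25.5% of all genes tested, 12.4% higher and 13.2% lower). GAB2, a docking protein that links receptors to PI3K, had 2001 normalized counts in parental cells, 221.3 and 271.8 in clone 3, and 130.2 and 168.2 in clone 4 (log2 change -3.34, SE 0.43, DESeq2 adjusted p = 6.498e-13). GRB7, an adaptor that binds ERBB2 and lies close to it on chromosome 17, fell from 728.2 to between 235.2 and 299 (log2 change -1.47, SE 0.25, DESeq2 adjusted p = 2.192e-07). FRS2, the docking protein of FGF receptors, rose from 813.8 to between 1570 and 1657 (log2 change 0.99, SE 0.15, DESeq2 adjusted p = 5.573e-09), and was not called with the GC correction (DESeq2 adjusted p = 0.08708).

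LRIG3, a membrane regulator of receptors, and NRP2, a VEGF co-receptor, were the other higher calls. LRIG3 rose by 1.70 on the log2 scale, and NRP2 rose from 37.27 normalized counts to between 107.4 and 293.1. ERRFI1, which inhibits EGFR kinase activity, fell from 4464 to between 2579 and 3239 (log2 change -0.68, SE 0.21, DESeq2 adjusted p = 0.008432). SHC1, RNF41 and PTPRJ were lower, with log2 changes of -0.64, -0.65 and -0.59, and these 3 calls and those of ERRFI1 and NRP2 were lost in edgeR. Without the treated clone 3 library the calls of ERRFI1, SHC1, RNF41 and PTPRJ were lost too (DESeq2 adjusted p = 0.05476, 0.06684, 0.07011 and 0.05206). SHC3 was the remaining lower call, with a mean under 100.

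Receptors called higher had a lower median GC content than those called lower, and the ranges overlapped. The transcripts of the 5 higher receptors held 38.6% to 55.9% GC (median 44.8%), those of the 8 lower ones 46.7% to 62.6% (median 56.2%), and those of all 46 had a median of 52.4%. With the GC correction AXL joined the higher calls, ERBB2 and EPHB4 left the lower calls, and 11 of the 13 calls stayed in their direction. Some receptors overlap another gene on the opposite strand, which leaves their counts uncertain. For ERBB2 these were MIEN1 (597 counts in parental, 315 to 430 in EIR cells) and PGAP3 (89 and 63 to 73), for EPHB4 SLC12A9 (325 and 324 to 360), and for FGFR1 LETM2 (89 and 44 to 49).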

How the data were processed

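Total RNA of TOV21G cells was sequenced as paired-end reads from a stranded total RNA kit. Reads were aligned to hg19 with bowtie2 by the authors, and RSEM turned them into a table of gene-level estimates, the sources used here differing on its version. What the authors deposited are the estimated counts (expected counts) as whole numbers, without normalization. No library was left out, 0 columns were unused, and columns were assigned to libraries through their names, the column without a clone tag being taken as parental.

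Symbols, coordinates, GC content and transcript length came from GENCODE release 44 mapped to GRCh37 (29203 of 30476 identifiers matched, 95.8%). GC and length were those of the Ensembl canonical transcript for the 27915 matched genes that had one. Otherwise they were medians over the transcripts of the gene, where it had any. Groups were compared by the Wald test of DESeq2 1.42.0 (R 4.3.3), the tool named in the methods of the study, two-sided, with its default size factors and p-values adjusted over all genes, and edgeR 4.0.16 was the alternative. EIR libraries entered as a single group, as 2 clones, or among themselves, with treatment as covariate for clone 4 against clone 3. Log2 ratios per library used a pseudocount of 0.5. The GC correction took a loess trend (span 0.5) of log2 counts on transcript GC per library as normalization factors. The script was tested on simulated data. Intervals and the floor of 3 counts cover counting error only. The clone number paired treated with untreated libraries, because same-numbered libraries come from the same clone (correlation of their deviations from group means 0.862 over 11564 genes).

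The list of receptors, which is by symbol, and the other gene lists and tests were chosen with earlier results of these data known. Values are given for receptors past the threshold in any comparison and for the 8 with the highest mean level per length. Ligands and adaptors are named where they were called in EIR against parental cells and their mean normalized count was 100 or more, up to 8 per direction. Some other ligands of named receptors, such as TGFA and EFNB1, are given as well. The account of those ligands is not complete, and AREG and EFNA1 are among the ones left out.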

Additional observations from a re-analysis of the deposited data

Results flagged for a closer look

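The clones differed beyond the threshold of the direct DESeq2 test for 13 receptors. On the log2 scale, clone 4 against clone 3, the differences were -1.25 for ERBB3, 1.81 for ERBB4, 2.06 for IGF1R, 0.95 for FGFR2, -1.04 for ROR1, -0.58 for MET, 1.03 for AXL, 1.00 for MERTK, -0.50 for EPHA4, 3.78 for EPHA5 and -2.86 for EPHB2. NTRK3 was at least 5.52-fold lower in clone 4, where it had no counts, and EPHA7 was 25.5-fold lower (95% exact interval for counting error 8.43 to 126). EPCAM and CDH1 counts separated the same clones, and their part in these differences was not tested.

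In FGFR4, the treated clone 4 library, at 354.4 normalized counts, stood apart from the other 3 EIR libraries, which were at 266.5 to 277.7. It was the only such case among 22 receptors examined, and chance gives about 1 in 20.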

How the results depend on the processing

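No called receptor changed sign under any alternative run that gave it an adjusted p. The same held for ligands and adaptors called in EIR against parental cells with a mean of 100 or more. The alternatives were total count scaling, TMM factors, a low count filter, the GC correction and edgeR. Others left out each EIR library, summed the clones, or took treated or untreated libraries alone. Calls of ligands and adaptors by clone are not in the counts below. Runs without an adjusted p are left out too, so losses may be undercounted. Of 444 repeated tests of named genes in EIR against parental cells, 375 kept their call and 69 lost it, and losses numbered 5 of 143 in clone 3, 7 of 153 in clone 4 and 17 of 128 between clones. In the fits per clone and between clones, leaving out a library left a lone one of its clone, which was then assumed to vary like the others. Between clones, receptor calls were fewest without a clone 3 library. Leaving out each EIR library gave 12 to 14 called receptors against parental cells. The share of all genes called in these runs is not given here, so a change in the number of called receptors cannot be told from a general one. For treated against untreated cells this count was 0 throughout. In EIR against parental cells, 9 of the 10 receptors called by edgeR were shared with DESeq2, and edgeR called 1746 genes in all against 4157. Summed clones gave 1914 genes, untreated libraries alone 1998, and treated ones alone 2017. Among all genes called between clones, 33.6% were higher in clone 4 and 48.5% with the GC correction, and total count scaling moved the share of higher calls in EIR cells from 48.4% to 56.8%. With the clone as replicate block, 0 receptors and 4 genes in all were called for treatment (1 gene without the block), and the block changed no receptor call. With 1 parental library, the spread of parental cells is unknown, and 24 of 46 receptors had a mean under 100 normalized counts, where counting error is larger.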
